A study of Homo sapiens with 6 samples.

Results

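The autophagy core machinery was followed here as 38 genes, chosen by name from the 17452 genes that each deposited table lists, and all 38 were found by their symbol. They cover the steps of autophagosome formation: initiation, nucleation, membrane supply, the conjugation enzymes, the ATG4 proteases, the homologues of yeast Atg8, the cargo receptors and the transcription factors TFEB and TFE3. Gene expression was measured by RNA sequencing of poly-A RNA in MDA-MB-231, a human cell line from a triple-negative breast tumour, grown in L-15 medium with 10% serum and, per the labels, without CO2. The siControl group (3 libraries) is labelled as control and the siPHF20L1 group (3 libraries) as PHF20L1 knockdown, by transfected siRNA with lipid reagents. PHF20L1 is a nuclear reader of methylated lysines, and the comparison asks which transcripts differ when its transcript is depleted. Sources used here do not state the siRNA sequences, how many siRNAs were used or when cells were harvested. Since the labels name no separate cultures for the 3 libraries of a group, p-values cover only the spread among these samples, and that spread may be technical.

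Autophagy encloses cytoplasm in a double membrane, the autophagosome, and delivers it to the lysosome. The ULK kinase complex starts the process, a class III phosphatidylinositol 3-kinase marks the site with PI3P, ATG9A and the ATG2 proteins supply lipid, and WIPI proteins read PI3P. A ubiquitin-like cascade then attaches LC3 and GABARAP proteins, the Atg8 homologues, to the membrane, where they hold cargo receptors such as p62. Much of the pathway is controlled on proteins (phosphorylation, lipidation and turnover), so transcript levels do not measure autophagic activity.

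Values are the deposited FPKM (fragments scaled to transcript length and library size), given per library or as mean ± SD over 3 libraries. Log2 differences are siPHF20L1 minus siControl on the log2(FPKM + 1) scale, which understates the change of low genes. A gene was called higher or lower where limma's two-sided p, adjusted over all 11560 genes tested, was under 0.05. PHF20L1 itself was at 15.75, 12.48 and 12.73 FPKM in siControl 1 to 3 and at 2.67, 2.31 and 2.74 FPKM in siPHF20L1 1 to 3, low in each library with the knockdown label. The libraries numbered 1 stood apart from the others in both groups. Between the libraries numbered 2 and 3 the chi-square of approximate fragment numbers averaged 2.03 over genes in siControl and 1.78 in siPHF20L1, and it averaged 11.2 to 14.3 in pairs with a library numbered 1. The steps of the low values put the depth at 17100000 to 17500000 fragments per library. Of the markers of the line, VIM, CD44, ZEB1, CAV1, KRT8 and KRT18 were at 29.9 FPKM or more in every library. ESR1 was listed at 0 throughout and PGR at 0.05 FPKM at most, while ERBB2 was at 25.8 to 31.5 FPKM. Of blood cell markers, HBB was listed at 0 and PTPRC at 0.87 to 1.43 FPKM.

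Of the 38 genes, 37 passed the filter of at least 1 FPKM in at least 3 libraries. Among these, 16 were higher and 5 lower in siPHF20L1 libraries and 16 did not pass the test. The share called, 56.8%, lay near that of all genes tested, 58.6% (34.0% higher and 24.7% lower), so the count of calls is not a result about autophagy genes. The balance of directions depended on the scaling, for members and for all genes tested. After quantile normalization 14 members were higher and 8 lower, beside 29.0% and 30.2% of all genes tested. Median-ratio size factors gave 14 and 9 members, beside 28.7% and 30.6% of all genes. A block for the replicate number gave 19 higher and 11 lower members (30 of 37), beside 76.1% of all genes tested (42.8% higher and 33.3% lower). The values of both groups did not overlap in 25 of the 37 members, beside 63.7% of all genes tested (36.7% higher and 27.0% lower in siPHF20L1). The median log2 difference of the 37 genes was 0.10, against 0.05 over all genes tested, and their median absolute difference was 0.21 against 0.28. A single member, ATG4D, was called and past 2-fold on the log2 scale, as were 5.22% of all genes tested.

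**Figure D1:**
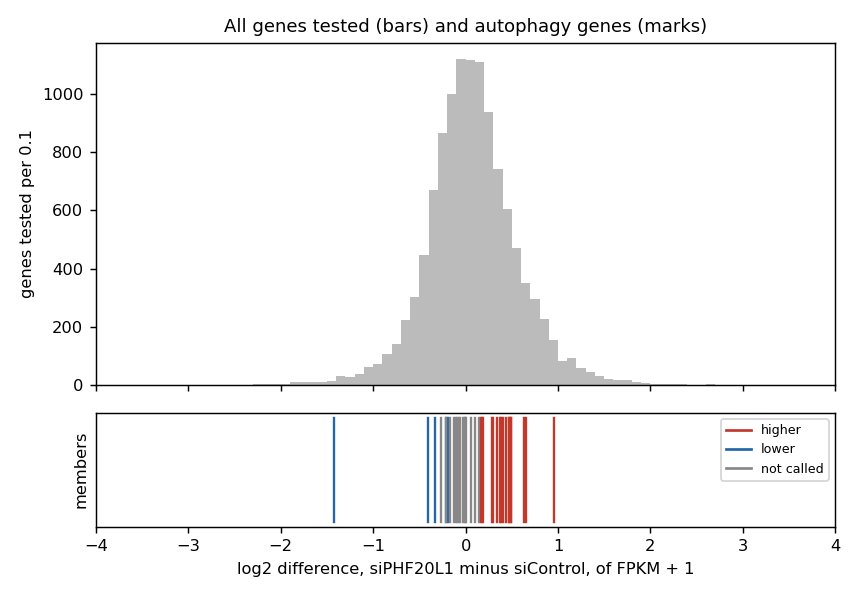
Histogram of the log2 difference (siPHF20L1 minus siControl, FPKM + 1) of the 11560 genes tested in steps of 0.1, above marks for the 37 autophagy genes tested, coloured by their call. The members lie within the body of the distribution, between -0.40 and 0.66, except ATG4D at -1.42 and WIPI2 at 0.95.

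ATG4D, WIPI2, TFEB and ATG2A showed the largest differences. ATG4D fell 2.80-fold, WIPI2 rose 2.00-fold, TFEB rose 1.74-fold and ATG2A rose 1.57-fold by the ratio of mean FPKM. On the log2(FPKM + 1) scale, in either direction, 1.44% of all genes tested had a difference at least as large as that of ATG4D. For WIPI2 this share was 6.13%, and for TFEB and ATG2A it was 15.7% and 17.2%. These shares do not rank the ratios of mean FPKM. In these bulk libraries a change in the share of cells that express a gene and a change in RNA per cell cannot be told apart.

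**Figure D2:**
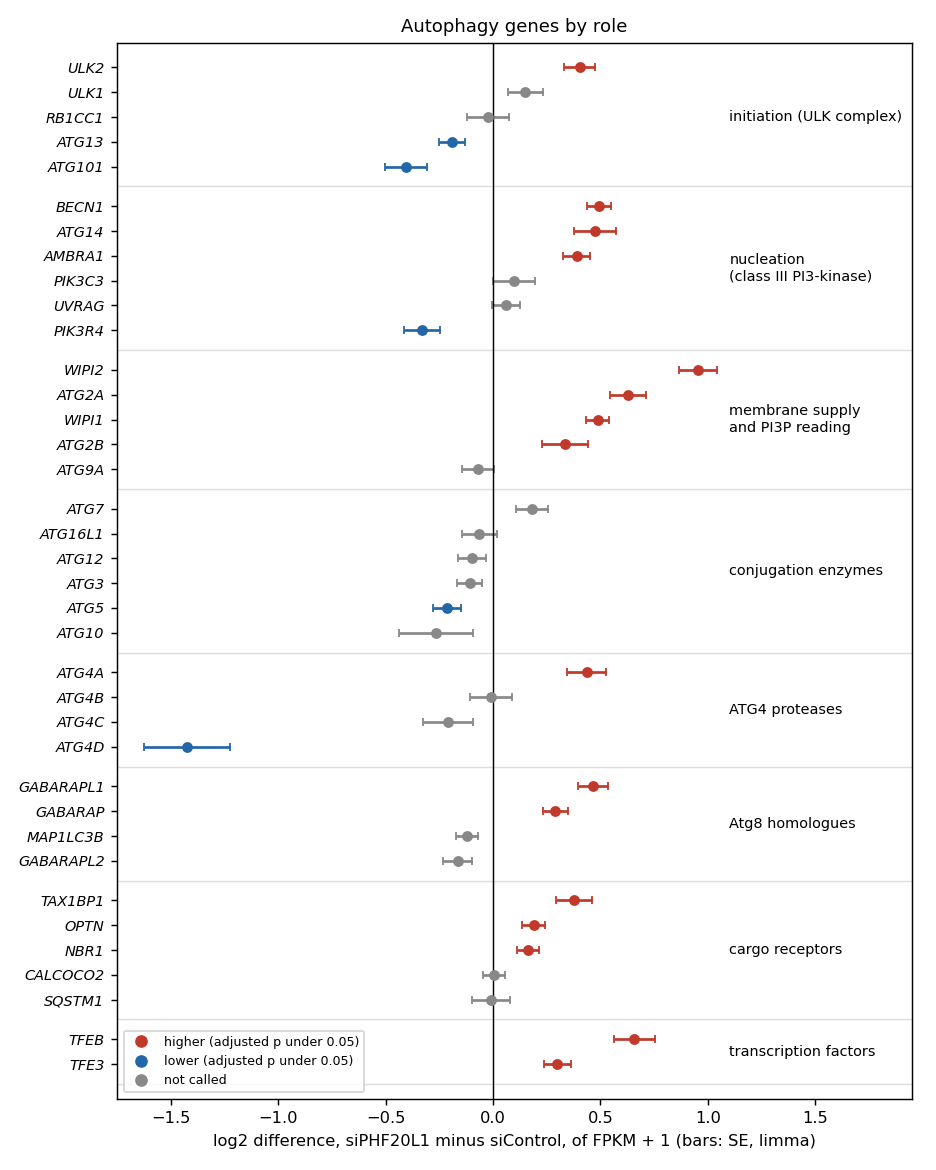
Log2 difference of each of the 37 autophagy genes tested, grouped by role, with bars for the SE of limma and colour for the call. Genes of membrane supply and PI3P reading lie mostly to the right (4 of 5 higher, beside 34.0% of all genes tested), the conjugation enzymes lie between -0.27 and 0.18, and ATG4D lies alone on the left at -1.42.

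The promoters were searched for cores of elements that TFEB, TFE3 and the stress factor ATF4 are known to bind. RefSeq windows on GRCh38.p14, from 250 bases before to 50 after the start, were found for 34 of the 38 members. CACGTG, the E-box core that TFEB and TFE3 bind, was in 2 of the 34 windows, those of ATG14 and ATG3, against 7.44% of all 27305 windows and 10.4% of those of genes tested. The longer palindrome TCACGTGA, which contains CACGTG, was in 1 window, that of ATG3, against 1.04% and 2.05%. TGATGNAA, the core of the element that ATF4 binds with C/EBP partners, was in none, against 3.67% and 1.59%. All were searched on both strands. A match describes letters only. The matches are shown with 10 bases on each side, 5′ to 3′ on the strand of the gene, with CACGTG in capitals, at chr14:55411836-55411861, chr3:112561965-112561990 and chr3:112561942-112561967, all on the minus strand.
ATG14: aacaaaatccCACGTGactggctctc
ATG3, before the start: tttctcacgtCACGTGccgggagagt
ATG3, after the start: agtctagtgtCACGTGaggccccggt
In the main fit ATG14 rose and ATG3 did not pass the test. With the block (limma, adjusted p = 0.0298) and with median-ratio size factors (0.0210) ATG3 was called lower. A part of the E-box core in these values was not tested.

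Initiation genes moved in both directions. ULK2, a kinase of the initiating complex, was at 1.51, 1.42 and 1.41 FPKM in siControl and at 2.32, 2.29 and 2.10 FPKM in siPHF20L1 libraries. The groups did not overlap, and ULK2 rose by 0.40 (SE 0.07, limma, adjusted p = 0.00145). ATG101, which holds the complex together with ATG13, was at 26.64, 31.39 and 31.18 FPKM in siControl and at 19.26, 24.02 and 23.52 FPKM in siPHF20L1 libraries. Every siPHF20L1 library lay below every siControl library, and library 1 was the lowest of each group. ATG101 fell by 0.40 (SE 0.10, limma, adjusted p = 0.00715).

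ATG13, the regulatory subunit, fell from 14.7 ± 0.282 to 12.7 ± 0.418 FPKM (log2 difference -0.19, limma, adjusted p = 0.0213). This call was lost without siControl replicate 2 (limma, adjusted p = 0.0721), siControl replicate 3 (0.0731), siPHF20L1 replicate 1 (0.0503) or siPHF20L1 replicate 3 (0.0596), and with the libraries numbered 2 and 3 averaged (0.147). ULK1, the better known of the kinases, was at 8.14 ± 0.511 and 9.15 ± 0.765 FPKM, a log2 difference of 0.15 (SE 0.08, limma, adjusted p = 0.139). It passed with the replicate block (limma, adjusted p = 0.0189) and when both libraries numbered 1 were left out (0.0370). RB1CC1, the scaffold also known as FIP200, was at 6.18 ± 0.691 and 6.06 ± 0.658 FPKM, with a log2 difference of -0.02 (SE 0.10).

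Among the nucleation genes, 3 of 6 were higher and 1 lower, beside 34.0% and 24.7% of all genes tested, a count over few genes. BECN1, which encodes the scaffold Beclin of the lipid kinase complex, was at 26.20, 24.55 and 23.81 FPKM in siControl and at 35.18, 35.43 and 35.37 FPKM in siPHF20L1 libraries. The siPHF20L1 values lay closer together than the siControl values, and the groups were well apart. BECN1 rose 1.42-fold, by 0.49 on the log2 scale (SE 0.06, limma, adjusted p = 0.000121). ATG14, the subunit that directs the kinase to autophagosome formation, was at 5.90, 4.46 and 4.72 FPKM in siControl and at 7.75, 7.15 and 7.10 FPKM in siPHF20L1 libraries. Library 1 was the highest in both groups, and without overlap ATG14 rose by 0.47 (SE 0.10, limma, adjusted p = 0.00306). AMBRA1, a positive regulator that binds Beclin, was at 9.97, 10.35 and 10.16 FPKM in siControl and at 13.06, 13.72 and 14.06 FPKM in siPHF20L1 libraries. It rose by 0.39 (SE 0.06, limma, adjusted p = 0.000705), with a gap between the groups wider than the range within either.

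The other kinase subunits did not follow. PIK3R4, the regulatory subunit known as VPS15, fell from 7.60 ± 0.621 to 5.83 ± 0.425 FPKM (log2 difference -0.33, limma, adjusted p = 0.00828, and 0.0523 with the libraries numbered 2 and 3 averaged). PIK3C3, the catalytic subunit VPS34, was at 17.6 ± 1.84 and 18.9 ± 2.10 FPKM (log2 difference 0.10, SE 0.10, limma, adjusted p = 0.409, and 0.0383 with the replicate block). UVRAG, which takes the place of ATG14 in the kinase complex of endosomes, was at 7.26 ± 0.127 and 7.62 ± 0.321 FPKM (log2 difference 0.06, SE 0.07, limma, adjusted p = 0.454).

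The genes of membrane supply and PI3P reading had 4 of 5 members higher, beside 34.0% of all genes tested, a count over few genes that was not tested. WIPI2, which binds PI3P and brings in ATG16L1, was at 13.59, 15.36 and 15.71 FPKM in siControl and at 26.48, 32.39 and 30.53 FPKM in siPHF20L1 libraries. The lowest siPHF20L1 library was far above the highest siControl library, and library 1 was the lowest of each group. WIPI2 rose by 0.95 (SE 0.09, limma, adjusted p = 3.51e-05). WIPI1, its homologue, was at 22.50, 23.45 and 23.35 FPKM in siControl and at 31.77, 33.43 and 33.19 FPKM in siPHF20L1 libraries, a narrow spread in both groups. WIPI1 rose 1.42-fold, by 0.49 (SE 0.05, limma, adjusted p = 9.69e-05).

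ATG2A and ATG2B encode proteins that move lipids into the growing membrane. ATG2A was at 19.23, 20.58 and 22.23 FPKM in siControl and at 29.27, 34.91 and 33.42 FPKM in siPHF20L1 libraries. The groups did not overlap, and ATG2A rose by 0.63 (SE 0.08, limma, adjusted p = 0.000251). ATG2B, the less abundant of the pair, rose from 4.38 ± 0.713 to 5.76 ± 0.497 FPKM (a log2 difference of 0.34 with an SE of 0.11, limma, adjusted p = 0.0242). Its call was lost without siControl replicate 2 (limma, adjusted p = 0.0920), siControl replicate 3 (0.0730), siPHF20L1 replicate 1 (0.0602) or siPHF20L1 replicate 3 (0.0501), without the filter on low values (0.0527) and with the libraries numbered 2 and 3 averaged (0.111). ATG9A, a membrane protein with lipid scramblase activity carried on vesicles, was at 46.0 ± 2.67 and 43.8 ± 3.57 FPKM (log2 difference -0.07, SE 0.07, limma, adjusted p = 0.436).

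**Figure D3:**
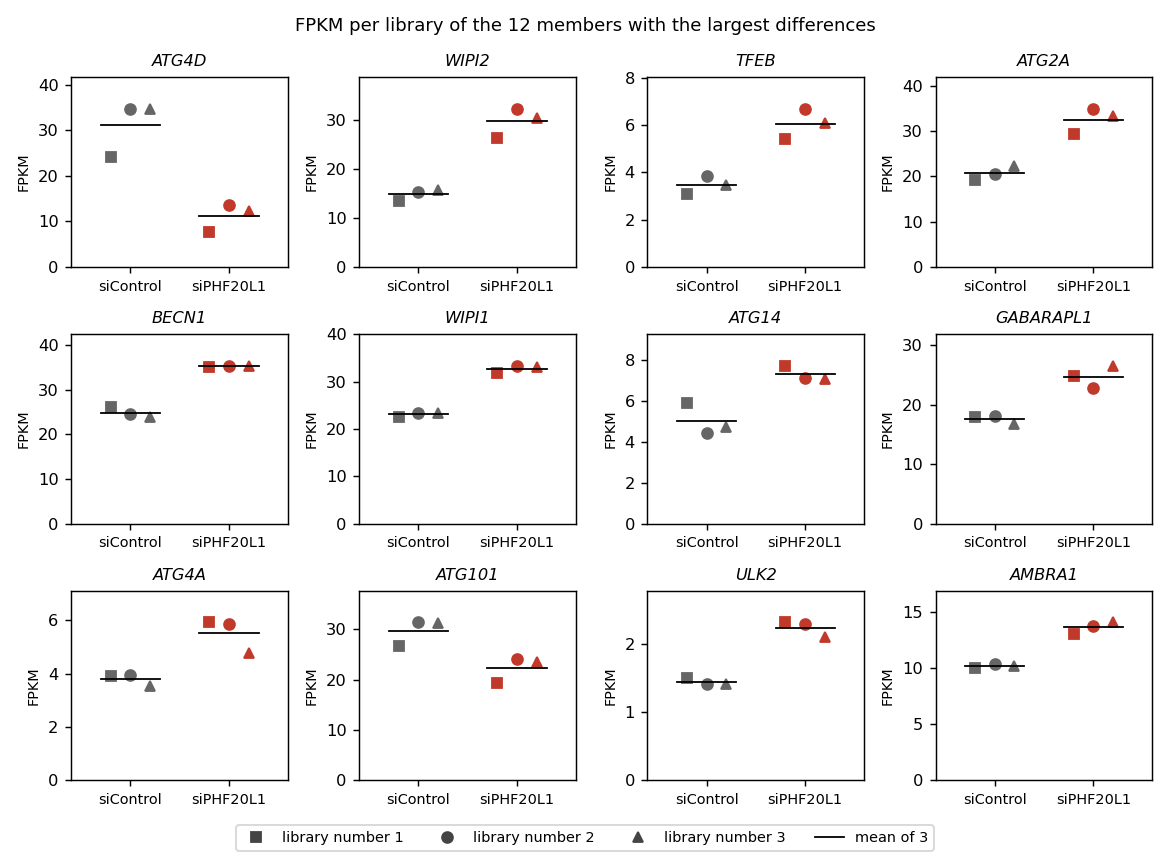
FPKM of the 12 members with the largest differences among those called, 1 panel per gene with its own axis from 0, by group, with a marker for each library number and a line at the mean of 3. In all 12 panels the groups do not overlap, and ATG4D and ATG101 are the panels in which siPHF20L1 lies lower. The panels were picked for large called differences, so their lack of overlap is no separate result. Of all genes tested, 63.7% did not overlap.

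Of the 6 conjugation enzymes, 1 was called, and lower, beside 58.6% of all genes tested (24.7% lower). With the block 1 was higher and 4 lower, beside 42.8% and 33.3% of all genes tested. Such counts over few genes were not tested. ATG5, which joins ATG12 in the conjugate that promotes LC3 lipidation, fell from 12.2 ± 0.537 to 10.4 ± 0.401 FPKM (a log2 difference of -0.21 with an SE of 0.07, limma, adjusted p = 0.0202). The call of ATG5 was lost without siControl replicate 2 (limma, adjusted p = 0.0719) or siPHF20L1 replicate 3 (0.0826) and with the libraries numbered 2 and 3 averaged (0.104). ATG7, the activating enzyme of the cascade, was at 5.79 ± 0.197 and 6.71 ± 0.541 FPKM (log2 difference 0.18, limma, adjusted p = 0.0685). The block (limma, adjusted p = 0.0178), leaving out both libraries numbered 1 (0.0166) and leaving out siPHF20L1 replicate 1 (0.0315) brought ATG7 past the threshold.

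ATG3, the conjugating enzyme for LC3, was at 36.2 ± 1.84 and 33.5 ± 1.12 FPKM (log2 difference -0.11, limma, adjusted p = 0.146). With the block it was called lower (limma, adjusted p = 0.0298), as it was with median-ratio size factors (0.0210). ATG12, the ubiquitin-like partner of ATG5, was at 16.1 ± 0.803 and 15.0 ± 0.679 FPKM (log2 difference -0.10, limma, adjusted p = 0.229). It too was called lower with the block (limma, adjusted p = 0.0454) and with median-ratio size factors (0.0351). ATG16L1, which binds the ATG12 and ATG5 conjugate, was at 11.1 ± 0.949 and 10.6 ± 0.626 FPKM (log2 difference -0.06, SE 0.08, limma, adjusted p = 0.516).

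ATG10, the conjugating enzyme for ATG12, was the lowest of the members tested. Its values were 1.34, 0.93 and 1.15 FPKM in siControl and 1.21, 0.33 and 0.90 FPKM in siPHF20L1 libraries, or about 14 to 56 fragments per library from the estimated depth and the median length of its annotated transcripts. The groups overlapped, and siPHF20L1 2 lay well below the other 5 libraries. The log2 difference of -0.27 (SE 0.17, limma, adjusted p = 0.216) passed with the block (limma, adjusted p = 0.0351) and without siPHF20L1 replicate 1 (0.0403).

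The 4 ATG4 proteases cut the end of newly made LC3 and GABARAP proteins and release them from membranes again, and their transcripts went apart. ATG4D was at 24.20, 34.68 and 34.74 FPKM in siControl and at 7.70, 13.51 and 12.18 FPKM in siPHF20L1 libraries. Library 1 was the lowest of both groups, and the highest siPHF20L1 value stayed far below the lowest siControl value. ATG4D fell by 1.42 on the log2 scale (SE 0.20, limma, adjusted p = 0.000386), with log2 differences of -1.53 for number 1 and -1.37 for numbers 2 and 3. ATG4A was at 3.93, 3.95 and 3.56 FPKM in siControl and at 5.93, 5.86 and 4.79 FPKM in siPHF20L1 libraries. All siPHF20L1 libraries lay above the siControl libraries, and ATG4A rose by 0.44 (SE 0.09, limma, adjusted p = 0.00318).

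ATG4B, known as the most active of the proteases, was at 16.7 ± 1.08 and 16.6 ± 2.17 FPKM (log2 difference -0.01, SE 0.10, limma, adjusted p = 0.941). ATG4C was at 2.79 ± 0.366 and 2.28 ± 0.461 FPKM (log2 difference -0.21, limma, adjusted p = 0.151). ATG4C passed with the block (limma, adjusted p = 0.0260), without siPHF20L1 replicate 1 (0.0232), without both libraries numbered 1 (0.0266) and after quantile normalization (0.0245). Of the summed FPKM of the 4 protease genes, ATG4D held 56.9% ± 4.44 in siControl and 30.9% ± 5.03 in siPHF20L1 libraries (SD, n = 3). ATG4B held 30.8% ± 1.97 and 46.8% ± 1.80 and thus became the largest share, while the sum went from 54.5 ± 6.76 to 35.6 ± 4.41 FPKM.

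The Atg8 homologues are the proteins that the conjugation cascade attaches to the membrane. GABARAP, the most abundant, was at 130.38, 137.60 and 142.97 FPKM in siControl and at 172.42, 168.95 and 161.11 FPKM in siPHF20L1 libraries. The groups did not overlap, with siControl 1 lowest and siPHF20L1 1 highest. GABARAP rose by 0.29 (SE 0.06, limma, adjusted p = 0.00265), with log2 differences of 0.40 for number 1 and 0.23 for numbers 2 and 3. GABARAPL1 was at 17.86, 18.06 and 16.76 FPKM in siControl and at 24.74, 22.69 and 26.54 FPKM in siPHF20L1 libraries. It rose 1.40-fold, by 0.47 (SE 0.07, limma, adjusted p = 0.000606), with no overlap.

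MAP1LC3B, whose lipidated protein is the usual marker of autophagosomes, was at 53.65, 53.41 and 51.10 FPKM in siControl and at 49.34, 47.88 and 47.70 FPKM in siPHF20L1 libraries. All siPHF20L1 libraries were lower by a small margin, and the log2 difference of -0.12 (SE 0.05) did not pass (limma, adjusted p = 0.0664). It passed with the block (limma, adjusted p = 0.00536), without both libraries numbered 1 (0.0156), without the filter (0.0490), after quantile normalization (0.0275) and under median-ratio size factors (0.00818). GABARAPL2 was at 28.10, 25.83 and 26.50 FPKM in siControl and at 23.57, 25.56 and 22.36 FPKM in siPHF20L1 libraries, with siPHF20L1 2 close to the siControl range. Its log2 difference of -0.16 (SE 0.07, limma, adjusted p = 0.0630) passed with the block (limma, adjusted p = 0.0105), without siPHF20L1 replicate 2 (0.0412), under median-ratio size factors (0.0128) and after quantile normalization (0.0167).

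MAP1LC3A was near the limit of detection and was not tested. It was listed at 0.12, 0.00 and 0.00 FPKM in siControl and at 0.06 FPKM in each siPHF20L1 library, which is what 0 to 2 fragments give at this depth. No difference of MAP1LC3A was detectable at this depth. The summed FPKM of the 5 homologues was 230.11, 234.90 and 237.33 in siControl and 270.13, 265.14 and 257.77 in siPHF20L1 libraries. Within that sum the share of GABARAP went from 58.5% ± 1.79 to 63.4% ± 0.737 (SD, n = 3) and that of GABARAPL1 from 7.50% ± 0.385 to 9.34% ± 0.883. The share of MAP1LC3B went from 22.5% ± 0.910 to 18.3% ± 0.223, and that of GABARAPL2 from 11.5% ± 0.658 to 9.01% ± 0.544. These sums and shares are descriptions with no test. MAP1LC3B can share reads with its near-identical copy MAP1LC3B2, listed at 0.49 to 1.56 FPKM over the 6 libraries, so its value is uncertain, by an amount that was not tested.

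**Figure D4:**
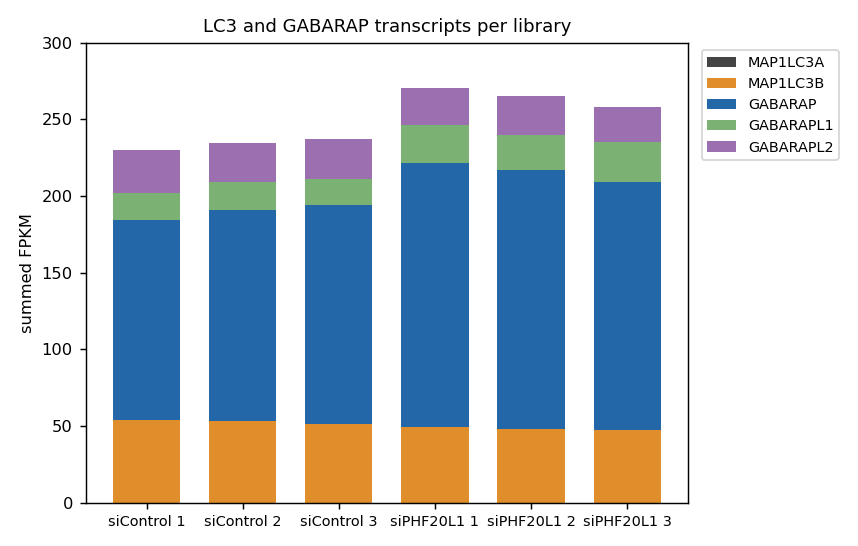
Stacked FPKM of the Atg8 homologues among the members in each library, from 0. The total lies at 230.11 to 237.33 in the siControl and 257.77 to 270.13 in the siPHF20L1 libraries, with the GABARAP segment larger and the MAP1LC3B segment slightly smaller in siPHF20L1, and MAP1LC3A too small to be seen.

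The cargo receptors tie ubiquitinated cargo to LC3 and GABARAP. SQSTM1, which encodes p62 and is a target of the oxidative stress factor NRF2, was the most abundant of all 38 genes, with 281.22, 320.80 and 327.73 FPKM in siControl and 274.16, 329.12 and 320.57 FPKM in siPHF20L1 libraries. The groups overlapped almost wholly, with library 1 low in both, and SQSTM1 had a log2 difference of -0.01 (SE 0.09, limma, adjusted p = 0.928). TAX1BP1 rose from 16.0 ± 1.81 to 21.0 ± 1.10 FPKM (a log2 difference of 0.38 with an SE of 0.09, limma, adjusted p = 0.00510). CALCOCO2, which encodes NDP52, was at 24.9 ± 0.205 and 25.0 ± 0.472 FPKM (log2 difference 0.00, SE 0.05, limma, adjusted p = 0.966).

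NBR1, a receptor built like p62, rose from 31.3 ± 0.802 to 35.1 ± 0.191 FPKM (log2 difference 0.16, limma, adjusted p = 0.0233). Its call was lost without siControl replicate 2 (limma, adjusted p = 0.0814), siPHF20L1 replicate 2 (0.0688) or siPHF20L1 replicate 3 (0.0818), with median-ratio size factors (0.195), after quantile normalization (0.0964) and with the libraries numbered 2 and 3 averaged (0.161). OPTN, the receptor optineurin, rose from 19.3 ± 0.271 to 22.1 ± 0.207 FPKM (log2 difference 0.19, limma, adjusted p = 0.0138). Its call was lost without siPHF20L1 replicate 2 (limma, adjusted p = 0.0553), with median-ratio size factors (0.0989), after quantile normalization (0.0644) and with the libraries numbered 2 and 3 averaged (0.125).

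Both transcription factors were higher, beside 34.0% of all genes tested. TFEB, which drives lysosomal and autophagy genes once it enters the nucleus, was at 3.08, 3.85 and 3.47 FPKM in siControl and at 5.40, 6.68 and 6.06 FPKM in siPHF20L1 libraries. The groups were apart, each with library 1 lowest and library 2 highest, and TFEB rose by 0.66 (SE 0.10, limma, adjusted p = 0.000484). TFE3, its relative, was far more abundant, with 72.83, 80.61 and 80.56 FPKM in siControl and 91.61, 96.62 and 100.24 FPKM in siPHF20L1 libraries. It rose 1.23-fold, by 0.30 (SE 0.06, limma, adjusted p = 0.00344), again without overlap.

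The called genes were chosen by a fit that held all libraries, so that the direction within the numbers is a description and no independent check. For all 21 called members the direction was the same in number 1 as in numbers 2 and 3, with a largest gap of 0.20 between both log2 differences, that of ATG14. The same held for 6774 of all 6777 genes called. Of the 16 members not called, 11 had the same direction in both, as did 76.4% of all genes not called.

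**Figure D5:**
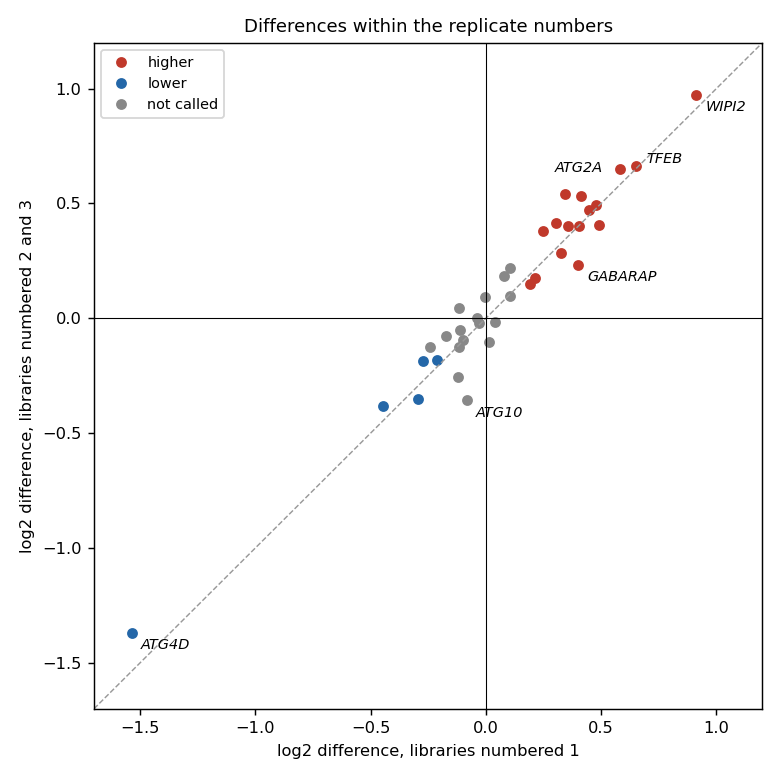
Log2 difference of each member between the libraries numbered 1 (x axis, 1 library against 1, no test) and between those numbered 2 and 3 (y axis), coloured by call, with the line of equality dashed. The 21 called members have the same sign on both axes, from ATG4D at -1.53 and -1.37 to WIPI2 at 0.91 and 0.97.

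Upstream of ULK1, the genes of mTORC1 and AMPK signalling, which inhibit and activate autophagy, had 14 of 31 tested higher and 8 lower, with a median log2 difference of 0.20. Beside this list and those that follow stand all genes tested, with 34.0% higher, 24.7% lower and a median of 0.05, and none of the lists was tested against them. PRKAB2 and PRKAG2, which encode regulatory subunits of AMPK, rose from 5.47 ± 0.550 to 13.5 ± 1.43 FPKM and from 14.3 ± 1.50 to 28.4 ± 1.94 FPKM. RRAGD, a Rag GTPase of the lysosomal surface, rose from 6.49 ± 0.552 to 12.4 ± 0.520 FPKM. LAMTOR5, a subunit of the Ragulator scaffold, fell from 50.4 ± 2.60 to 19.4 ± 0.110 FPKM (log2 difference -1.33, limma, adjusted p = 8.88e-07).

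Of 20 tested genes among the further factors of autophagosome formation, 9 were higher and 1 lower (median 0.23). ULK3, a relative of the ULK kinases, rose from 9.04 ± 0.989 to 18.7 ± 2.32 FPKM, and RUBCN, which encodes the inhibitor Rubicon, from 11.9 ± 0.518 to 23.3 ± 0.661 FPKM. WDR45, a further PI3P-binding protein of the WIPI family, rose by 0.65, and BCL2L1, which encodes the Beclin-binding BCL-XL, by 0.49. In the list of fusion with the lysosome, 5 of 20 were higher and 2 lower (median 0.03). The adaptor genes PLEKHM1 and FYCO1, whose proteins bind LC3 and endosomal GTPases, rose from 12.7 ± 0.336 to 29.6 ± 2.33 FPKM and from 5.33 ± 0.534 to 13.2 ± 0.919 FPKM. VPS41 of the HOPS tether rose by 0.60, and the fusion gene SNAP29 fell by 0.46. With the block 8 genes of the fusion list were higher and 2 lower, beside 42.8% and 33.3% of all genes tested.

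The mitophagy list had 3 of 14 higher and 4 lower (median 0.07). With the block these were 5 and 4, beside 42.8% and 33.3% of all genes tested. BNIP3L, the receptor NIX, fell from 50.2 ± 5.36 to 28.0 ± 2.92 FPKM, beside the larger fall of its homologue BNIP3 (-1.83). BCL2L13, another mitochondrial receptor, rose from 6.75 ± 0.169 to 13.8 ± 0.391 FPKM, and the mitochondrial fusion gene MFN1 from 6.01 ± 0.392 to 13.7 ± 1.43 FPKM. Of 16 receptor and adaptor genes for other cargo, 7 were higher and 2 lower (median 0.13). TRIM5 and TRIM21, ubiquitin ligases that bind autophagy proteins, rose by 0.87 and 0.55, and FAM134A and TEX264, receptors of the endoplasmic reticulum, by 0.54 and 0.51.

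In the list of the TFEB family, its regulators and lysosomal targets, 13 of 28 were higher and 2 lower (median 0.23). TPP1, a lysosomal peptidase gene, rose from 27.5 ± 1.14 to 52.6 ± 3.54 FPKM, and GSK3B, a kinase that acts on TFEB, from 5.87 ± 0.999 to 11.7 ± 1.56 FPKM. CTSB, the cathepsin B gene, fell from 28.6 ± 2.56 to 13.4 ± 0.673 FPKM. Among genes of other transcriptional control, 7 of 18 were higher and 5 lower (median 0.13). DDIT3, which encodes the stress factor CHOP, rose from 5.27 ± 1.47 to 17.7 ± 1.98 FPKM and FOXO3 from 8.09 ± 0.661 to 14.2 ± 0.558 FPKM, beside the rise of ATF4 (0.89). SIRT1, a deacetylase gene, fell from 11.6 ± 0.819 to 5.28 ± 0.344 FPKM. Over the 7 lists, 58 of 147 tested genes were higher and 24 lower, or 55.8% called, near the 58.6% of all genes tested. The highest adjusted p of limma over the genes named from these lists was that of VPS41 (0.000468).

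Transcripts of some members overlap those of other genes. In the GENCODE annotation on GRCh38, exons of 19 of the 38 members overlap exons of a gene on the opposite strand, a coding gene in 14 cases. Whether the counting used strand was not given in the sources used here, so values of these members are uncertain. ATG4D overlaps KRI1, which fell from 28.6 ± 1.71 to 23.9 ± 0.771 FPKM (log2 difference -0.25, limma, adjusted p = 0.00845), a smaller fall than that of ATG4D. BECN1 overlaps PSME3, which fell while BECN1 rose (98.6 ± 2.10 to 70.3 ± 3.06 FPKM). WIPI1 overlaps ARSG, which was at 1.06 ± 0.0889 and 2.72 ± 0.242 FPKM, far below WIPI1. ATG2B overlaps GSKIP, which fell from 9.65 ± 0.709 to 1.80 ± 0.150 FPKM while ATG2B rose. SQSTM1 overlaps MGAT4B, which rose from 82.9 ± 9.42 to 132.2 ± 18.7 FPKM. ATG10 overlaps RPS23, which fell from 114.6 ± 5.33 to 66.9 ± 7.95 FPKM and lay far above ATG10. ATG7 overlaps VGLL4, which lay above ATG7 and rose from 10.1 ± 0.312 to 17.2 ± 0.316 FPKM, the direction of ATG7. The partners of ATG13 (HARBI1), ATG4B (THAP4) and MAP1LC3B (FBXO31) were called higher and that of TAX1BP1 (JAZF1) lower. Those of ATG12 (AP3S1) and ATG3 (SLC35A5) did not pass the test. The part of these genes in the members' values was not tested.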

How the data were processed

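The libraries were made from poly-A RNA with a stranded kit, per the labels' protocols. Bowtie 0.12.2, HTSeq 0.6.0, TopHat2 2.1.1 and the build GRCh37 appear, without role or order, per the submitters' processing notes. The values are FPKM per the file headers, 1 for each gene and library; how the authors computed them was not given in the sources used here. Because FPKM are not counts, limma 3.58.1 (R 4.3.3) was fitted on log2(FPKM + 1) over all 11560 genes with at least 1 FPKM in at least 3 libraries, with an intensity trend, no block and Benjamini-Hochberg adjustment over all of them. Whether the p-values of this fit hold when the libraries numbered 1 stand apart from the others was not tested. Depth was estimated from the steps of FPKM times length in single-transcript genes under 1500 nucleotides, searched from 5000000 to 60000000 fragments, and is an estimate only; 1 fragment in 1 kb was worth 0.0571 to 0.0585 FPKM. Deviations from the group means of same-numbered libraries correlated at 0.73, 0.44 and 0.42 across genes (numbers 1, 2 and 3). The main fit does not use this pairing, so a fit with a block for the replicate number was run as an alternative. Its value is given where the block changed the call of a member. siControl 3 with siPHF20L1 2 gave 0.49, so the numbers 2 and 3 are not separated by this check. The 15 alternatives covered scaling, pseudocount, filter, trend, block and libraries.

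The members and lists were chosen with earlier results of these data known. Values are given for every member. Per-library values are given for the 12 called members with the largest differences, for the Atg8 homologues and for members under 1 FPKM in a whole group; those of SQSTM1, TFE3 and ATG10 were added after their values were seen. From each of the 7 further lists, up to 4 called genes with the largest differences are named. The values of 1 such gene are not reported here. Promoter windows are from RefSeq (GRCh38.p14). The files give no coordinates. Those of the promoter windows are from that reference build, not from the GRCh37 of the processing notes, and no other coordinates are printed.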

Additional observations from a re-analysis of the deposited data

How the results depend on the processing

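Of the 21 called members, 15 stayed called in the same direction under all 15 alternatives, 6 lost the call under at least 1 (ATG13, PIK3R4, ATG2B, ATG5, NBR1 and OPTN), and none changed sign. Of the 16 not called, 9 were called under at least 1 alternative, all 9 with the replicate block. The count of lower members (5) went to 8 with quantile normalization, to 9 with median-ratio size factors, 11 with the replicate block and 2 with the libraries numbered 2 and 3 averaged, and lay between 3 and 6 when each library was left out. Lower genes over the 7 further lists (24) were 13 with those libraries averaged. In the list of autophagosome formation the lower count (1) was 3 with quantile normalization, but 4 with median-ratio size factors, 3 with the replicate block, 4 in the libraries numbered 2 and 3 only, 0 with them averaged, and 1 to 3 with each library left out. In the fusion list, 8 were higher with the replicate block (5 without it), and the lower count (2) was 1 without the filter, 1 with equal sums of FPKM, 1 with the libraries averaged and 1 to 2 with each library left out. In the mitophagy list the higher count (3) was 5 with the replicate block and 6 in the libraries numbered 2 and 3 only, and the lower count (4) was 2 without the filter, 2 with the libraries averaged and 2 to 4 with each library left out. For receptors of other cargo the lower count (2) was 1 without the filter, 0 with the libraries averaged and 1 to 2 with each library left out. For the TFEB family list it was 4 with median-ratio size factors and 4 with the replicate block (2 in the main fit), and for other transcriptional control 2 with the libraries averaged (5 in the main fit). The cause of these shifts was not tested, beside the smaller number of samples where libraries were left out or averaged.

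Members that changed sign were all uncalled, with differences near 0. UVRAG was at -0.0253 with quantile normalization and at -0.0099 with median-ratio size factors. CALCOCO2 was at -0.0578 and -0.0731 under these, at -0.0148 in the libraries numbered 2 and 3 only, and at -0.0114 to 0.0141 with each library left out. SQSTM1 was at 0.12 with quantile normalization, 0.0062 with equal sums, 0.0025 in the libraries numbered 2 and 3 only, and -0.0787 to 0.0708 with each library left out. ATG4B was at 0.0061 with equal sums, 0.0445 in the libraries numbered 2 and 3 only, and -0.0723 to 0.10 with each library left out, and RB1CC1 at -0.10 to 0.052 with each library left out. Of the members tested, 2 had under 100 estimated fragments in a library (ATG10 and ATG4C), which limits their precision.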

Other observations

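Partner genes within the machinery were also set against each other in each library, pairs chosen after the values were seen and given with no test. ATG14 over UVRAG, the subunits that define the separate kinase complexes of autophagosomes and endosomes, was 0.80, 0.62 and 0.66 in siControl and 1.05, 0.95 and 0.89 in siPHF20L1 libraries. GABARAP over MAP1LC3B was 2.43, 2.58 and 2.80 in siControl and 3.50, 3.53 and 3.38 in siPHF20L1 libraries. ATG4D over ATG4B was 1.57, 2.00 and 2.01 in siControl and 0.54, 0.77 and 0.67 in siPHF20L1 libraries, and WIPI2 over WIPI1 was 0.60, 0.66 and 0.67 against 0.83, 0.97 and 0.92. TFEB over TFE3 was 0.042, 0.048 and 0.043 in siControl and 0.059, 0.069 and 0.060 in siPHF20L1 libraries. In each of these pairs the groups did not overlap. Each pair holds a called member whose own groups did not overlap, so this is no separate result. Of all genes tested, 63.7% did not overlap on their own, and the share over other pairs of genes was not computed. ATG2A over ATG2B did overlap, with 3.71, 5.40 and 5.36 in siControl and 4.62, 6.44 and 6.04 in siPHF20L1 libraries, and library 1 was the lowest of both groups.

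The words CAAGAT or TAAGGA, which an earlier look at these same data had picked because 3′ UTRs of lower genes held them, are in the longest annotated 3′ UTR of 17 of the 37 members tested. Of these 17, 5 were higher and 3 lower (ATG13, ATG5 and ATG4D), and of the other 20, 11 were higher and 2 lower (ATG101 and PIK3R4). Over all genes tested with a 3′ UTR, 31.9% of 6075 carriers were higher and 28.4% lower, and 36.6% of 5156 others were higher and 20.5% lower. The words were chosen on these libraries, and their part in the differences of the members was not tested. A longer 3′ UTR has more room for either word, and lengths were not compared between carriers and others.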
